A study of Mus musculus with 12 samples.

Results

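The histone genes were examined for peaks of S9.6 immunoprecipitation, in which an antibody that binds RNA-DNA hybrids pulls down R-loops, structures where a transcript pairs with its DNA template and displaces the other strand. Members were the protein-coding RefSeq genes of assembly GRCm38.p6 whose current or former symbol marks them as linker histone (H1) genes or as genes of the named histone clusters. There were 71 of them among 21887 protein-coding genes on chromosomes 1 to 19, X and Y. The current symbol found 67 and a former cluster symbol found 4 more (H4f16, H2bu2, H2aw and H4bc24). By family they comprised 10 genes of H1, 18 of H2A, 18 of H2B, 12 of H3 and 13 of H4. H4bc24 was counted as H2B, since its former symbol, Hist1h2br, names that family. The symbols take in H1f0 and H1f10, which are replacement linker histones outside the clusters, but not replacement core histones such as H3f3a and H2az1, which are described separately.

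The series holds 12 libraries, 6 from HEPA1-6 cells and 6 from mouse liver. For each source, 2 libraries are S9.6 immunoprecipitates, 2 are input DNA, and 2 are immunoprecipitates labelled with RNase H1, an enzyme that degrades the RNA of a hybrid. HEPA1-6 is an established mouse hepatoma line, and the liver came from C57/Bl6 mice whose age and number are not given in the sources used here. The labels call all samples WT and untreated, with hepatocyte as the cell type. All values come from 1 peak list per source. The peak names describe a merged immunoprecipitate set against input. Which libraries were merged is not stated, and the libraries with RNase H1 were not analysed here, so the share of these peaks that RNase H1 removes is not known.

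The HEPA1-6 list held 28717 peaks and the liver-labelled list 14908, and the sequencing depth behind either is unknown. Without replicate lists no spread can be given, and no difference between the 2 lists was tested. As background, the share of all protein-coding genes with a peak was 42.0% for HEPA1-6 and 29.7% for the other list. Of markers of dividing cells, 12 of 12 held a peak in HEPA1-6 and 10 of 12 in the list labelled liver. Of 16 hepatocyte markers, 5 (31.2%) and 4 (25%) held a peak, which is near those shares of all genes, so the markers do not show the cell type of either list. The second list is called liver-labelled after its label. None of 6 Kupffer cell or 5 endothelial markers held a peak, and in each of the stellate, cholangiocyte and lymphoid lists 1 of 5 markers did in HEPA1-6, namely Dcn, Sox9 and Cd79a. Dcn and Sox9 also held one in the liver-labelled list. What the marker pattern contributes to the histone gene results was not tested.

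Histones package DNA into nucleosomes. H2A, H2B, H3 and H4 form the core particle, and H1 binds the DNA that enters and leaves it. Most histone genes lie in clusters, have no introns, and are transcribed in S phase, when replicated DNA needs new histones. Their messenger RNAs end in a conserved stem-loop instead of a poly(A) tail. Many of the H2A and H2B genes sit head to head as divergent pairs with a shared promoter region. Copies within a family, above all within H3 and H4, are nearly identical in their coding sequence.

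Promoter sequences are shown first, because the highest-scoring peaks lay at linker histone genes while other genes of that family held none. The 250 bases before the annotated gene start are given 5′ to 3′ in the direction of the gene (RefSeq, GRCm38.p6), with 4 motifs in capitals on either strand: TATAAA, the core of the TATA box; CCAAT, the CCAAT box; ATTTGCAT, the octamer of H2B promoters; and AAACACA, the H1 box. The first 4 genes held a peak in both lists and H1f1 and H1f6 in neither.
H1f4 (chr13:23622559-23622808, minus strand): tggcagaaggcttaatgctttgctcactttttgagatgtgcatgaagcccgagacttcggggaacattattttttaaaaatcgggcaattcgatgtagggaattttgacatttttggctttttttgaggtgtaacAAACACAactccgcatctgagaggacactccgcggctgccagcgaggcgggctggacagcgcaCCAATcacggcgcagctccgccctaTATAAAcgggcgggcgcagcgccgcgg
H1f3 (chr13:23554782-23555031, plus strand): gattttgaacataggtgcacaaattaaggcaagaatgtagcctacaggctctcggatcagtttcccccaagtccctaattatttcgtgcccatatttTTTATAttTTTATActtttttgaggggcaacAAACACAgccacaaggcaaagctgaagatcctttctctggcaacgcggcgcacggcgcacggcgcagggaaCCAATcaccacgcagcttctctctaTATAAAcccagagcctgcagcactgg
H1f2 (chr13:23738557-23738806, plus strand): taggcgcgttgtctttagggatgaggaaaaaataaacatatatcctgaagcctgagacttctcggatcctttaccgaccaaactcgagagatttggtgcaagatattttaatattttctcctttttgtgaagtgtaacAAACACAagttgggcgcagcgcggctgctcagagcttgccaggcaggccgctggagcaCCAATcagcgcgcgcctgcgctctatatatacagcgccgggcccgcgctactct
H1f5 (chr13:21780626-21780875, minus strand): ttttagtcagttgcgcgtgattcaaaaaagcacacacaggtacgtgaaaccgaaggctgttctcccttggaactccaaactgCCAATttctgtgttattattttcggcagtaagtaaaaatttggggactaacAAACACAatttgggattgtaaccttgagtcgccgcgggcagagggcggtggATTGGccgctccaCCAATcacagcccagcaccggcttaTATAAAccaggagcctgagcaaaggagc
H1f1 (chr13:23763418-23763667, plus strand): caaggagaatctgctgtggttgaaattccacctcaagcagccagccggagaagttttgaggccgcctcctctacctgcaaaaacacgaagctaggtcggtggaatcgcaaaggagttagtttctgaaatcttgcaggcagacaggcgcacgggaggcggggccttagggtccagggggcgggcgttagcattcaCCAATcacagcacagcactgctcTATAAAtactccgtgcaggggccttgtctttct
H1f6 (chr13:23695561-23695810, plus strand): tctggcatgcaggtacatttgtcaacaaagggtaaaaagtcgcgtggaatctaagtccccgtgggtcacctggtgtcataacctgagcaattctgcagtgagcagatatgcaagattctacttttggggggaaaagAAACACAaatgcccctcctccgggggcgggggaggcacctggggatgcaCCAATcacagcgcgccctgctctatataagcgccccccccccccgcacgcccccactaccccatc

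In H1f4, H1f3, H1f2 and H1f5 the H1 box began between positions -122 and -112, counted from the gene start at 0, and a CCAAT box between -54 and -51. H1f4, H1f3 and H1f5 also had TATAAA between -28 and -26. H1f1, without a peak, had a CCAAT box and TATAAA but no AAACACA in this stretch. H1f6, the testis linker histone gene, had both AAACACA and CCAAT and held no peak either. The remaining linker histone genes are not shown, and were searched from 250 bases before the gene start to 50 after it. H1f0 and H1f10, with a peak in both lists, had none of the motifs there. H1f7 and H1f8 held no peak, and H1f8 had a CCAAT box alone while H1f7 had no motif. The presence of these letters therefore did not separate the genes with a peak from those without.

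The following stretches belong to the member with the highest HEPA1-6 score in each core family, with H4c1 added as an H4 gene without a peak. H2ac20 shares its peak and score with H2ac21. H2bc6 enters through a long gene model whose distal start lies close to H1f4, and the peak there did not reach the stretch shown.
H2ac21 (chr3:96219635-96219884, plus strand): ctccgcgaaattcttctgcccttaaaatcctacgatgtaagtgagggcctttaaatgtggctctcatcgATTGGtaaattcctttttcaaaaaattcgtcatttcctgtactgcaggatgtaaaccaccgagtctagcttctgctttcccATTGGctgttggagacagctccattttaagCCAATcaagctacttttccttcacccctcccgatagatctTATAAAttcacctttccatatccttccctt
H2bc6 (chr13:23621095-23621344, minus strand): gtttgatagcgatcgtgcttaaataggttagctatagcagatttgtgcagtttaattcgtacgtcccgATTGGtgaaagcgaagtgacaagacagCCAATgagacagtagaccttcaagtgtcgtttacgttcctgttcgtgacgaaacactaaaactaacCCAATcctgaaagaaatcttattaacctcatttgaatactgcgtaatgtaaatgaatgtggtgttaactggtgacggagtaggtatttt
H3c15 (chr3:96239128-96239377, minus strand): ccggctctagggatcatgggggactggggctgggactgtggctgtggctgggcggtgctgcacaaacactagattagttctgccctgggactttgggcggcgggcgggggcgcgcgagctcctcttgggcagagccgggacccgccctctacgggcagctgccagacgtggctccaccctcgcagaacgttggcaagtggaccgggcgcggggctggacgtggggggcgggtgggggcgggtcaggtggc
H4c12 (chr13:21750554-21750803, minus strand): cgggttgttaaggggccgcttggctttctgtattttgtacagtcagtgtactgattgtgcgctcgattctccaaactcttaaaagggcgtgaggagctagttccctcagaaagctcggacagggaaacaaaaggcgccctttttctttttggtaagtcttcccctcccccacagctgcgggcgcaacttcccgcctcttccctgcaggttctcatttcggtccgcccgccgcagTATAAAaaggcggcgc
H4c1 (chr13:23761250-23761499, minus strand): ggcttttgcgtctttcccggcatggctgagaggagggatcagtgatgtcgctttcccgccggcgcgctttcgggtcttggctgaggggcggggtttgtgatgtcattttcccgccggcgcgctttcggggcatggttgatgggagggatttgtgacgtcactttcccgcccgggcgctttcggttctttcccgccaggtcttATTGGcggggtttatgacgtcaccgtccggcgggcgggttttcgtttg

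H2ac21 carried 3 CCAAT boxes and a TATAAA at -30, and the HEPA1-6 and liver-labelled peaks covered 100% of the stretch. H3c15 was also covered completely in both lists although none of the 4 motifs occurred in it. The stretch of H4c12 was covered to 85.6% in both lists, and that of H4c1 had no peak over it.

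A gene counted as holding a peak if at least 1 bp of a peak fell in the gene or within 1 kb of it. In HEPA1-6, 43 of 71 histone genes (60.6%, 95% Wilson interval 48.9 to 71.1%) held a peak, against 42.0% of all protein-coding genes. In the liver-labelled list 31 histone genes did (43.7%, 32.7 to 55.2%), against 29.7%. All 31 also held a HEPA1-6 peak, and genes with a peak in both lists made up 27.8% of all protein-coding genes. A HEPA1-6 peak alone was found at 12 histone genes (16.9%, 9.94 to 27.3%), against 14.2% of all genes. A liver-labelled peak alone was found at 0 of 71 (0 to 5.13%), against 1.89%. The remaining 28 genes held no peak in either list, where the share over all protein-coding genes was 56.1%. Intervals cover counting error only, and neighbouring genes under a common peak are not independent.

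The background share is lower for short genes, and the median histone gene model was only 496 bp long. Among protein-coding genes of up to 1 kb, the called share was 4.38% for HEPA1-6 and 2.85% for the liver-labelled list, and about as many histone genes as other genes were among them. Of the 61 histone genes of this length, 35 (57.4%, 44.9 to 69.0%) and 24 (39.3%, 28.1 to 51.9%) held a peak. Of the 1516 other genes of this length, 34 (2.24%) and 21 (1.39%) did. These other genes were chosen by length alone. They may differ from histone genes in expression, which was not measured here, so the gap is not one of length-matched and otherwise similar genes. A peak in both lists was found at 24 of the 61 short histone genes, against 2.79% of all short genes, and a HEPA1-6 peak only at 11, against 1.59%. None of the 61 held a liver-labelled peak only, against 0.0634%, and 26 held neither, against 95.6%. Among all protein-coding genes no longer than the longest histone gene model (37455 bp), the shares were 39.5% for HEPA1-6 and 27.5% for the liver-labelled list.

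**Figure D1:**
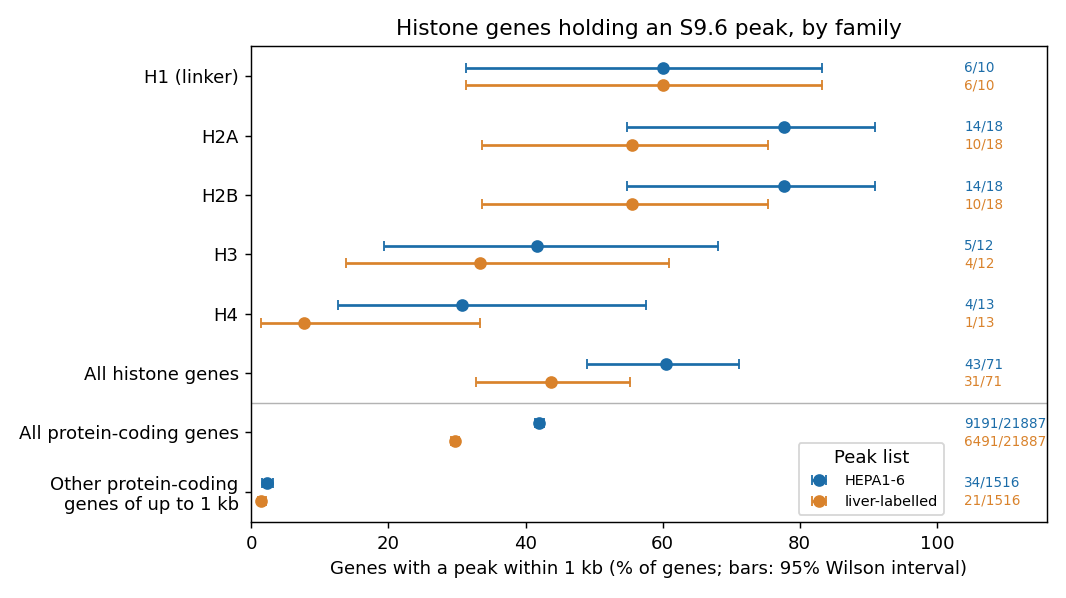
Share of genes with a peak within 1 kb of the gene body (x axis, percent) for each histone family, all histone genes and 2 backgrounds; points are shares in each list, bars are 95% Wilson intervals, and the numbers at the right give genes with a peak over all genes. H2A and H2B had the highest shares in HEPA1-6 (14 of 18 each), and H4 had the lowest share of the 5 families in both lists (4 of 13 and 1 of 13).

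The 3 highest-scoring histone gene peaks of each list lay at linker histone genes. H1f4, which encodes H1.4, held a peak of score 610 in HEPA1-6 (rank 44 of 28717) and 234 in the liver-labelled list (rank 94 of 14908). H1f3, which encodes H1.3, scored 291 (rank 102) and 194 (rank 124). H1f2, which encodes H1.2, scored 203 (rank 184) and 80 (rank 464). H1f5, which encodes H1.5, scored 98 (rank 742) and 64 (rank 733). At each of these 4 genes, in either list, 95.1% or more of the peaks scored at or below the one at the gene. The score is the authors', its scale is not stated, and it is read here only as a rank within its list.

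The peaks at H1f2, H1f3 and H1f4 covered the gene from before its start to beyond its end. At H1f3 the same interval was called in both lists, from position 23554552 to 23556325 on chromosome 13, which reaches from 480 bp before the gene start to 518 bp past its end. The interval at H1f2 was also identical in both lists (23738669 to 23739970), from -138 bp at the start to 439 bp past the end. At H1f4 both peaks began 262 bp before the start, and they ended 297 bp (HEPA1-6) and 151 bp (liver-labelled) past the gene. H1f5 differed in position: both its peaks began 387 bp inside the gene, and they left the start and the promoter window uncovered. They ended 743 bp past the gene in HEPA1-6 and 25 bp past it in the liver-labelled list.

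The replacement linker histone genes also held peaks in both lists. H1f0, on chromosome 15, encodes H1.0, which is abundant in resting and differentiated cells. The peak there scored 88 in HEPA1-6 (rank 896) and 35 in the liver-labelled list (rank 2820), and covered the start and most of the body. H1f10, on chromosome 6, encodes H1.10. Its interval was identical in both lists (87980121 to 87983051), with a score of 50 in HEPA1-6 (rank 2655) and 19 in the liver-labelled list (rank 8681). In HEPA1-6, 90.8% of peaks scored at or below it, and in the liver-labelled list 41.8%.

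The remaining H1 genes held no peak in either list. H1f1, which encodes H1.1, lay 16290 bp from the nearest HEPA1-6 peak and 16745 bp from the nearest liver-labelled one. H1f6, the testis gene, lay 9561 bp and 42124 bp away. H1f7, expressed in spermatids, and H1f8, the oocyte gene, are outside the clusters, at 112501 bp and 20563 bp from a HEPA1-6 peak. The H2A and H2B genes of the male germ line, H2ac1 and H2bc1, lay between 186347 and 187514 bp from the nearest peak of either list. No peak was called at the 5 germ cell genes, a group formed after the values were seen. As 56.1% of all protein-coding genes and 95.6% of those of up to 1 kb held no peak in either list, nothing particular to these genes is read from the count. The lists hold called peaks only, so weaker signal at these genes is not visible in them.

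The median score over all histone gene peaks was 47.5 in HEPA1-6, and 22 of 24 peaks (91.7%) scored above the list median of 21, as did 47.0% of the peaks at protein-coding genes. In the liver-labelled list the median was 35, and 12 of 19 (63.2%) scored above the list median of 22, as did 48.4% at protein-coding genes. Median widths were 1895 bp and 1290 bp, beside 1137 and 957.5 bp at protein-coding genes. The median score was lower at core histone genes than at H1 genes. In HEPA1-6 the median score was 150.5 for the 6 peaks near an H1 gene (50 to 610) and 39 for the 18 others (15 to 111). In the liver-labelled list the medians were 72 for 6 peaks (19 to 234) and 35 for 13 (17 to 49). The ranges overlapped in both lists, and the difference was not tested. Widths ran the other way in HEPA1-6, with a median of 1557.5 bp at H1 genes and 2021 bp at the others. In the liver-labelled list these medians were 1538 and 1245 bp.

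**Figure D2:**
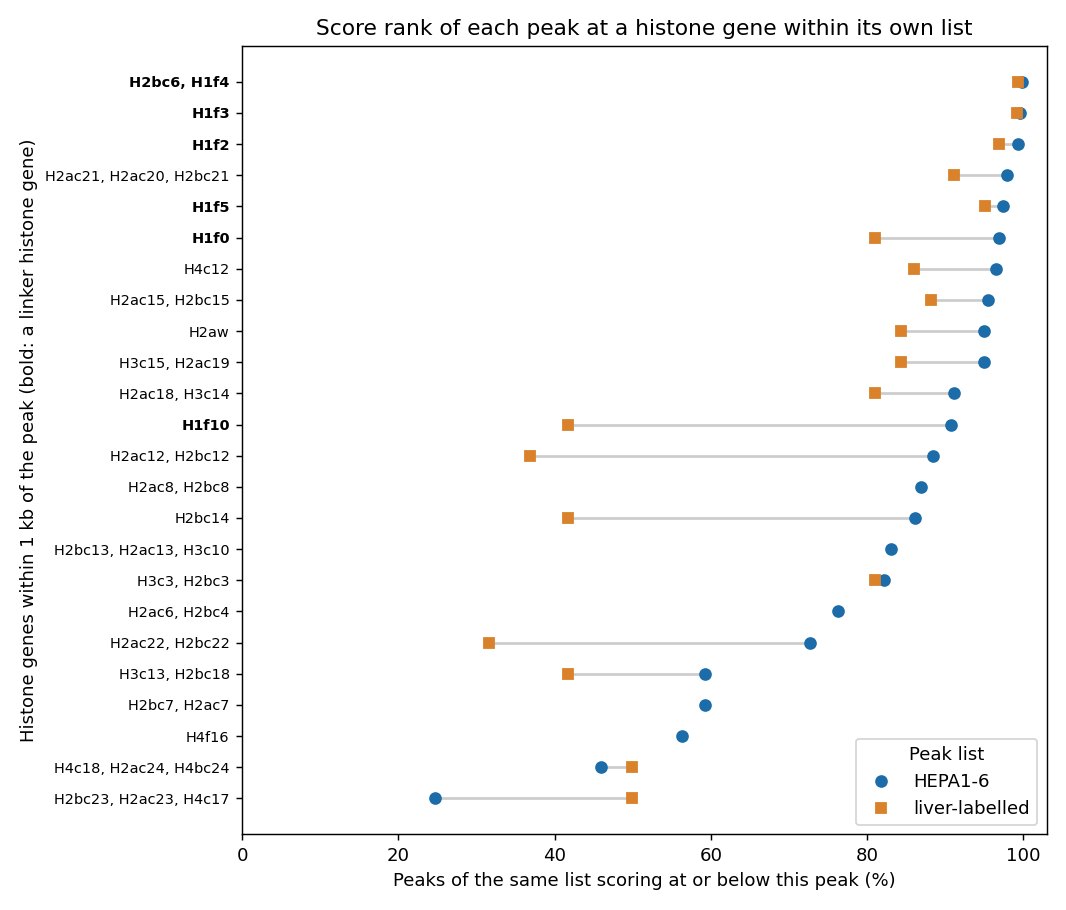
Percentage of the peaks of a list that score at or below each peak at a histone gene (x axis, percent), for the 24 HEPA1-6 peaks (circles) and the overlapping liver-labelled peaks (squares), named by the histone genes within 1 kb; bold names include a linker histone gene. The peaks at H1f4, H1f3 and H1f2 are at 96.9% or above in both lists, and 5 HEPA1-6 peaks have no liver-labelled partner.

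In each of the H2A and H2B families 14 of 18 genes (77.8%, 54.8 to 91.0%) were called in HEPA1-6 and 10 of 18 (55.6%, 33.7 to 75.4%) in the liver-labelled list, beside 42.0% and 29.7% of all protein-coding genes. Of the histone gene peaks, 10 of 24 in HEPA1-6 and 6 of 19 in the liver-labelled list were within 1 kb of both an H2A and an H2B gene. The other H2A and H2B genes with a peak lay under a peak alone, with H3 genes or, for H2bc6, with H1f4. Apart from H2bc6, the top score was at H2ac21, H2ac20 and H2bc21 on chromosome 3. A HEPA1-6 peak there (96218949 to 96221294, score 111) and a liver-labelled peak (96219175 to 96221294, score 49) each covered H2ac21 and H2ac20 completely. Of the H2bc21 body, each covered 8.36%. On chromosome 13, H2ac15 and H2bc15, a divergent pair, lay under a peak of score 72 in HEPA1-6 (21752778 to 21754542) and 43 in the liver-labelled list (21752778 to 21754530). The divergent pair H2ac12 and H2bc12 had scores of 45 and 18, and the liver-labelled peak overlapped the H2A body but only the flank of the H2B gene. H2ac22 and H2bc22 had scores of 29 and 17.

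H2bc14 was the only H2B gene with a peak to itself in both lists, with scores of 41 and 19. H2bc6 was counted only because its gene model of 37455 bp starts near H1f4. At H2aw, an H2A gene on chromosome 11, the HEPA1-6 peak (58955213 to 58956023, score 68) began past the gene's end and overlapped Trim17, a neighbouring gene. The liver-labelled peak there (58954680 to 58955866, score 38) covered the H2aw body. H2bu2, the H2B gene near H2aw, held none, with the nearest peaks at 5841 bp and 5308 bp.

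Among H3 genes the share was lower than in H2A and H2B: 5 of 12 in HEPA1-6 (41.7%, 19.3 to 68.0%), with 4 of 12 (33.3%, 13.8 to 60.9%) for the liver-labelled list. These shares are close to those of all protein-coding genes (42.0% and 29.7%) and above those of genes of up to 1 kb (4.38% and 2.85%). Of the 5 genes, 3 were on chromosome 3. H3c15, with the H2A gene H2ac19, lay under peaks of score 68 and 38. H3c14, with H2ac18, lay under the widest histone gene peaks, of 6491 bp in HEPA1-6 (score 51) and 5177 bp in the liver-labelled list (score 35). H3c13, with H2bc18, had scores of 23 and 19. On chromosome 13, H3c3 and H2bc3 shared peaks of score 36 and 35, and H3c10 held a HEPA1-6 peak only.

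H4 had the lowest share of the 5 families: 4 of 13 in HEPA1-6 (30.8%, 12.7 to 57.6%), with 1 of 13 (7.69%, 1.37 to 33.3%) for the liver-labelled list. The shares over all protein-coding genes were 42.0% and 29.7%, and over those of up to 1 kb 4.38% and 2.85%. H4c12 held a peak in both lists, with scores of 84 (21750106 to 21750767, rank 981) and 40 (21750383 to 21750767, rank 2080) over its start. H4f16, on chromosome 6, held a HEPA1-6 peak of score 22 over its body. H4c17 and H4c18 were counted through the flank alone, as the edges of peaks of scores 15 and 19 lay 513 and 676 bp from these genes. The Wilson intervals of the 5 families overlap in HEPA1-6. In the liver-labelled list the interval of H4 lies below those of H2A and H2B by a narrow margin (upper limit 33.3% against a lower limit of 33.7%), and no test between families was run. The intervals treat genes as independent, although 6 of the 19 liver-labelled peaks lay near both an H2A and an H2B gene. This margin is therefore not read as a difference between families.

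Because core histone genes occur in near-identical copies, reads from one copy can match another, and how such reads were treated is not stated. Within the promoter windows, 10 of 67 held stretches of 75 bases, the read length in the labels, that recur in another gene's window. They belonged to H3c14 and H3c15, H2ac18 and H2ac19, H2ac23 and H2ac24, H2bc23 and H4bc24, and H4c17 and H4c18, with 64.2 to 100% of the stretches repeated. All 10 genes held a HEPA1-6 peak, 2 of them (H4c17 and H4c18) through the flank, and none of the 25 windows of genes without a peak had such a repeat. A HEPA1-6 peak was held by 60.6% of histone genes and 42.0% of all protein-coding genes. Each of the 10 genes shared its HEPA1-6 peak with another of them, so they are not separate observations. H4c17 and H4c18 held no liver-labelled peak. Coding sequences were not used here, so the part of repeated sequence in the counts of each family was not tested.

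**Figure D3:**
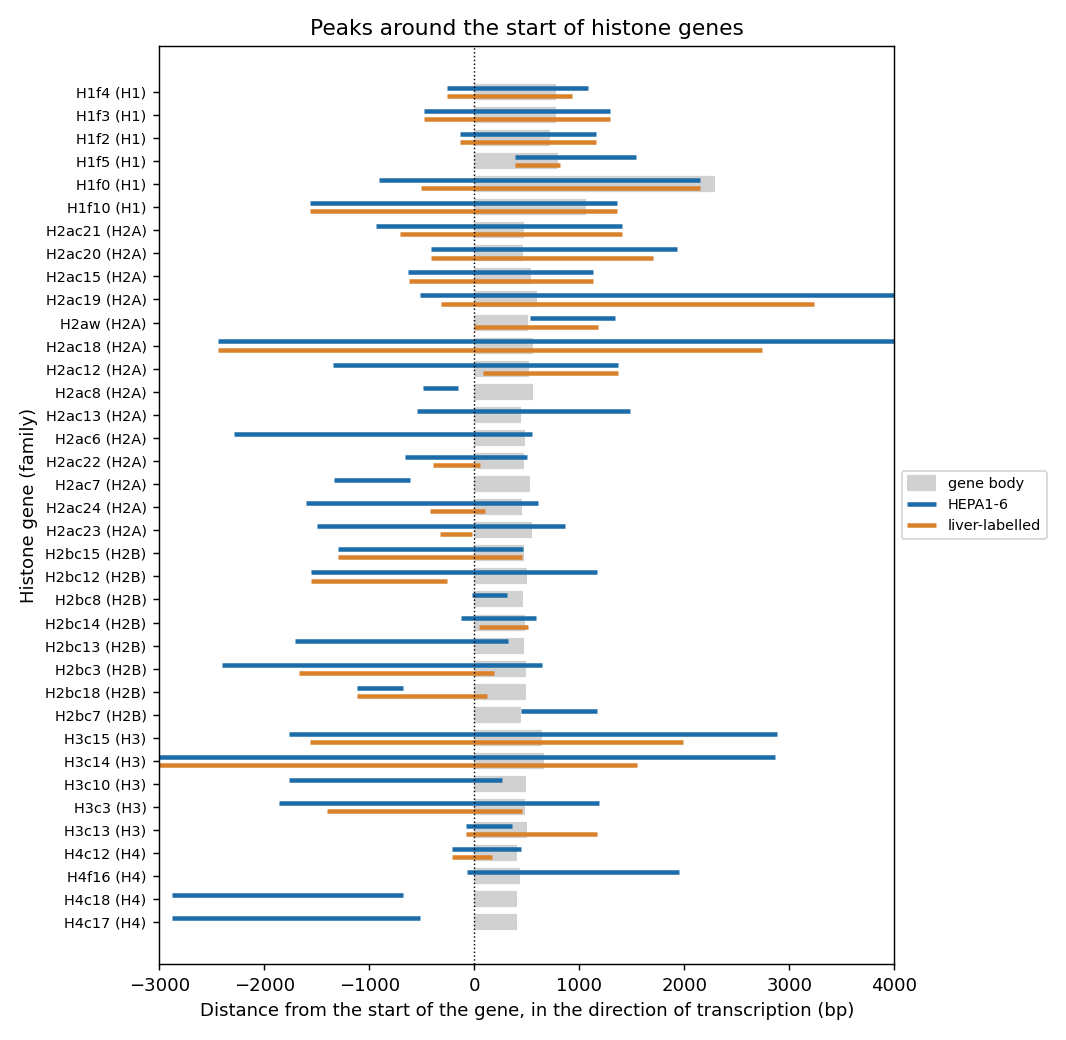
Peaks within 1 kb of histone genes of known strand and up to 3 kb in length, drawn against distance from the gene start in the direction of transcription (x axis, bp; peaks are cut at the edges of the plot); grey bars are gene bodies, blue lines HEPA1-6 peaks and orange lines liver-labelled peaks. Peaks at H1f4, H1f3 and H1f2 span the whole gene, those at H1f5 begin 387 bp inside it, and those at H4c17 and H4c18 end before the gene.

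Since histone genes are short and close together, most peaks lay near several. The 43 genes with a HEPA1-6 peak shared 24 peaks, of which 15 were within 1 kb of 2 or more histone genes and 4 near 3. The 31 genes with a liver-labelled peak shared 19 peaks, of which 11 were near 2 or more and 1 near 3. As background, 9.41% of HEPA1-6 peaks and 13.1% of liver-labelled peaks at protein-coding genes were near 2 or more such genes. In all, 34 histone genes (HEPA1-6) and 23 (liver-labelled) were counted through a shared peak, which cannot be assigned to a single gene. The HEPA1-6 peaks near 3 histone genes were those at H2ac21, H2ac20 and H2bc21, at H2bc13, H2ac13 and H3c10, at H2bc23, H2ac23 and H4c17, and at H4c18, H2ac24 and H4bc24. Counting bodies only, 11 and 8 peaks overlapped 2 or more histone genes.

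Among genes with a HEPA1-6 peak, the median share of the gene body under peaks was 100%, and 23 of 43 bodies were covered completely. In the liver-labelled list the median was 93.9% and 13 of 31 were covered completely. H2B was lower, with medians of 35.2% (HEPA1-6) and 6.25% (liver-labelled), and the gene models of H2bc21, H2bc22, H2bc23, H4bc24, H2bc6 and H2bc4 are 2667 to 37455 bp long. Of the genes with a peak and a promoter window, 33 of 41 had the window touched in HEPA1-6 and 26 of 30 in the liver-labelled list.

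The members fell into 3 clusters of 3 or more genes, holding 64 of the 71. On chromosome 3 (96219885 to 96270192), 9 of 10 genes held a peak in both lists, against 27.8% of all protein-coding genes, and H4c14, 5262 bp from the nearest peak of either list, was the exception. These 9 genes lay at only 4 peaks in each list, so they are not separate observations. H2bc18 was counted in HEPA1-6 through the flank alone, 683 bp from the peak. The larger locus on chromosome 13 is split into blocks 1.49 Mb apart. In the first (21715711 to 22043658, 23 genes), 18 genes (78.3%, 58.1 to 90.3%) were called for HEPA1-6, and 13 (56.5%, 36.8 to 74.4%) were called in the other list. In the second (23531044 to 23934913, 31 genes), 12 (38.7%, 23.7 to 56.2%) and 6 (19.4%, 9.19 to 36.3%) were called. The shares over all protein-coding genes, 42.0% and 29.7%, lie inside the intervals of the second block. Its last 187535 bp (187990 bp in the liver-labelled list) held 8 histone genes, H2ac4, H3c2, H4c2, H4c1, H3c1, H1f1, H2bc1 and H2ac1, and no peak. Inside the 3 clusters there were 9 other protein-coding genes, among them Hfe, an iron regulator, and the solute carrier genes Slc17a1, Slc17a2, Slc17a3 and Slc17a4. None of the 9 held a peak in either list (0 to 29.9%), where 56.1% of all protein-coding genes held none.

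The 12 genes with a HEPA1-6 peak only were on chromosome 13 except for H4f16. H2bc13, H2ac13 and H3c10 shared a peak of score 37 (21715866 to 21717891). H2ac8 and H2bc8 shared a peak of 334 bp, the narrowest at a histone gene in HEPA1-6, with a score of 42. H2bc7 and H2ac7 shared a peak of score 23, and H2ac6 and H2bc4 a peak of score 31. H2ac8 and H2ac7 were counted through the flank alone, with their peaks 156 bp and 615 bp from the gene. Of the H2bc7 body, 1.56% was covered. H4c17 and H4c18 completed the group, and there the liver-labelled list had a narrower peak that stayed more than 1 kb from the H4 gene. The 5 HEPA1-6 peaks at histone genes without an overlapping liver-labelled peak scored 22 to 42, whereas the 19 with one ranged from 15 to 610. Of the 24 HEPA1-6 peaks, 19 (79.2%) overlapped a liver-labelled peak, against 31.8% of HEPA1-6 peaks at protein-coding genes. All 19 liver-labelled peaks (100%) overlapped a HEPA1-6 peak, against 88.9%. The peaks compared were not matched for score or width, both of which had higher medians at histone genes, and these differences were not tested.

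Where both lists had a peak, edges often coincided. The interval was identical in 3 of 19 overlapping pairs (H1f3, H1f2 and H1f10), against 6.29% of all 11455 overlapping pairs of the lists. At least 1 edge was shared in 12 of 19 pairs (63.2%), against 46.1%. The authors' strands were opposite in 7 of 19 pairs (36.8%), against 14.0% of 10990 pairs with a strand in both lists. In 3 of the 7 the peak lay near 2 or more histone genes, as at H2ac21 and H2ac20, which lie on opposite strands. At the other 4 it lay near a lone histone gene: H1f3, H4c12, H2aw and H1f0. The H1f3 interval, identical in both lists, was given the strand opposite to the gene in HEPA1-6 and the gene's strand in the liver-labelled list. For peaks near a lone histone gene of known strand, the peak had the gene's strand in 7 of 9 cases in HEPA1-6 and 6 of 8 in the liver-labelled list. H2aw is counted here and among the 4 pairs, although both its peaks also overlap Trim17 and the HEPA1-6 peak does not reach the H2aw body. How strands were given to peaks is not stated, and the strand was not used to assign peaks to genes.

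Promoter windows of 300 bp, from 250 before the gene start to 50 after it, were found for 66 of the 71 genes (67 windows, as H2bc6 has more than one start). TATAAA occurred in 35 windows (52.2%), against 13.6% of 32851 promoter windows of the same length. This background holds windows of 27025 genes, more than the 21887 protein-coding genes, and some genes have several windows. CCAAT occurred in 55 (82.1%), against 37.4%. ATTTGCAT occurred in 14 (20.9%), against 1.74%, and all 14 belonged to H2A or H2B genes, whose windows overlap in divergent pairs. AAACACA occurred in 9 (13.4%), against 7.18%, and in 5 of the 10 H1 windows. Both strands were searched, and a match is a description of the letters only. H4 windows stood out by the CCAAT box, which 3 of 12 held, where every H2A, H2B and H3 window held it. In H3c15 no match lay wholly within the 250 bases before the gene start.

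**Figure D4:**
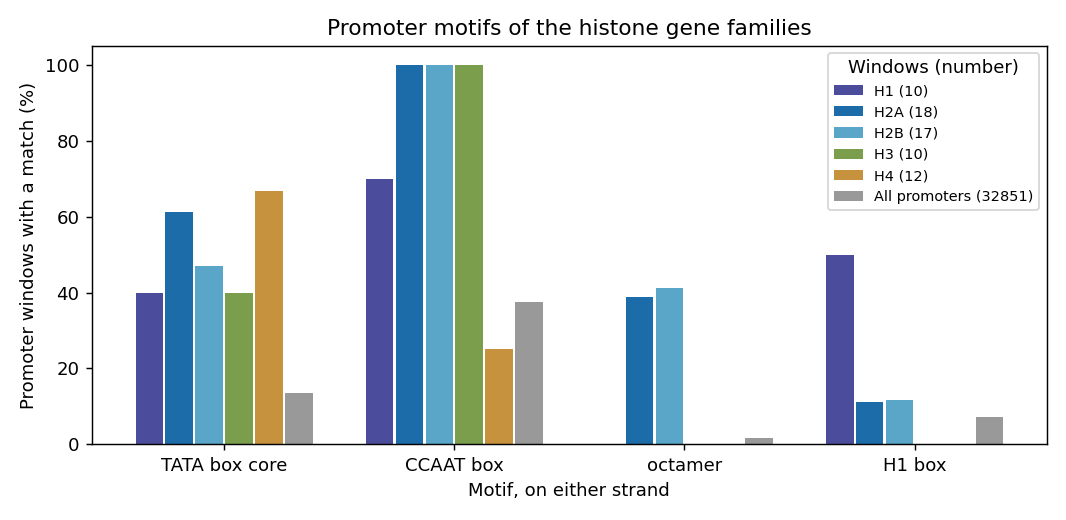
Share of promoter windows (y axis, percent) that hold each motif on either strand, for the histone families and for all 32851 windows; the number of windows is in the legend. The CCAAT box is in every H2A, H2B and H3 window and in 3 of 12 H4 windows, and the octamer appears among histone windows in H2A and H2B alone.

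Each motif occurred both in genes with a peak and in genes without. TATAAA was in 13 of 25 windows of genes without a peak and in 14 of 31 windows of genes with a peak in both lists. CCAAT was in 19 of 25 and 28 of 31. The octamer was in 3 of 25 and 8 of 31, and AAACACA in 4 of 25 and 5 of 31. The median G+C content was 47.0% (33.3 to 59.3%) for genes without a peak and 46.3% (37.3 to 77.7%) for genes with a peak in both lists, where all promoter windows had a median of 52.7%. The highest values belonged to H1f10 (77.7%), H1f0, and H3c14 and H3c15 (72.7% each), all with peaks in both lists. These comparisons were not tested.

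Genes of histone supply outside the rule were described with the same count. Of 10 replacement and variant histone genes, 8 (80%, 49.0 to 94.3%) held a peak in both lists, against 27.8% of all protein-coding genes. H3f3b, which encodes the replacement histone H3.3, reached scores of 708 and 303. H2aj reached 306 and 173, and H2az1, which encodes H2A.Z, reached 294 and 174. Macroh2a2 and H3f3c held none. Of 20 genes for transcription and 3′ processing of histone messenger RNA, 18 (90%, 69.9 to 97.2%) were called for HEPA1-6, whereas the liver-labelled list called 10 (50%, 29.9 to 70.1%). The highest were Nfyc (74 and 66), a subunit of the factor that binds the CCAAT box, Upf1 (72 and 40), which acts in the decay of histone messenger RNA, and Pou2f1 (57 and 35), which binds the octamer. The next genes are named for their role, after their values were seen. Npat, the transcriptional coactivator of histone genes, scored 50 and 22. Slbp, whose product binds the stem-loop, scored 17 and 22. Casp8ap2 and Lsm11, which act in 3′ processing, held HEPA1-6 peaks only (top scores 31 and 56), and Lsm10 and Zfp473 held none. Of 19 histone chaperone genes, 18 and 15 held a peak, among them Nap1l1 (186 and 95), Npm1 (151 and 78) and Chaf1a (111 and 44), while Asf1b held none. The counts in single lists are set beside 42.0% and 29.7% of all protein-coding genes, and no count here is set beside the short genes.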

How the data were processed

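Per the labels' protocols, genomic DNA was immunoprecipitated with S9.6, sonicated, amplified and sequenced as paired 75 bp reads. Per the submitters' processing notes, the tools were CASAVA 1.8.2, cutadapt, Bowtie2, bedtools, SAMtools and MACS2, with the build mm10, which is GRCm38. Thresholds, the treatment of reads that match several places, and the source of a peak's strand are not given in the sources used here. The authors deposited 1 peak list for each source with a score for each peak, a whole number of 10 or more on an unstated scale. Deeper libraries yield more peaks, so list lengths are not comparable between sources.

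Peaks were intersected with RefSeq genes (GRCm38.p6, positions printed 1-based) in Python 3.11.15 with pandas 2.3.3, with intervals from scipy 1.17.1. Overlap functions were tested on simulated data. Promoter windows and strands came from RefSeq. Clusters joined histone genes less than 500 kb apart. Named genes were those with a peak in only 1 list, the 5 highest scores of each list, genes under the peaks near most members, and members outside chromosome 13. Members and lists were chosen with earlier results of these data known. Alternatives covered the flank, the overlap, the score, the number of peaks and the strand.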

Additional observations from a re-analysis of the deposited data

How the results depend on the processing

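Counts of histone genes with a HEPA1-6 peak, and of those with a HEPA1-6 peak only, stayed within 1.5 times the reported value in all 9 alternatives, the second of them at that limit in 1 (18 against 12). The shares still depended on the flank. Without it, 36 of 71 histone genes (50.7%) held a HEPA1-6 peak, against 40.2% of all protein-coding genes. For the liver-labelled list the count without a flank was 28 (39.4%, against 27.6%). With only the higher-scoring peaks of each list (those above the middle rank), the liver-labelled count was 19 of 71 (26.8%, against 20.7% of all protein-coding genes) and the count for both lists 19 (against 19.3%), where 31 and 31 were reported. The count with a HEPA1-6 peak only was then 18 (25.4%, against 14.1%). The number with a liver-labelled peak only, 0 as reported, was 2 without a flank (H2bc18 and H2aw), 1 with a flank of 500 bp, 1 with the midpoint of the peak, and 4 with equal numbers of peaks (H2bc23, H2ac23, H2ac24 and H4bc24). In the last setting the HEPA1-6 list is shortened, and it lost both low-scoring peaks at these genes. Leaving out peaks without a strand changed no count, since no peak at a histone gene lacked one. The alternatives with current symbols only and with gene models up to 1 kb, and peaks counted without a flank, were chosen after seeing the data. No paired analysis was possible because the data are 1 merged list for each source, so leaving out a replicate could not be run either. The unknown depth limits every statement that a gene held no peak.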
